A study of Homo sapiens with 3 samples.

Results

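Transcripts of 6 classical and atypical cadherins (CDH1, CDH2, CDH3, CDH11, CDH13 and CDH19), 3 transcription factors of the epithelial-mesenchymal transition (SNAI1, SNAI2 and TWIST1) and fibronectin (FN1) were followed in melanoma cells grown as a monolayer, as 3D bodies and again as a monolayer. The members were all non-control probes whose gene name on the array equals 1 of these 10 symbols, which gave 15 probes in 33 spots, out of 41000 probes for 30990 genes in 43376 spots. The largest differences lay in CDH19, which was highest in the bodies, and in CDH3 and CDH13, which were highest in the regrown monolayer. CDH1 lay at background on all 3 arrays, while CDH2, CDH13, SNAI1, SNAI2, TWIST1 and FN1 were well above background on every array.

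The cells were 1205Lu, a single human melanoma line taken from a lung metastasis that the WM793 line formed in a mouse. The original monolayer (OM) had grown for 14 days in RPMI-1640 with 10% FCS. The melanoma bodies (MB) had grown for 14 days as attached 3D spheroids in hESC medium, DMEM/F-12 with 20% KO serum replacement, and the new monolayer (NM) had spent 14 days in hESC medium before 10 days in RPMI-1640 with 10% FCS, after which remaining bodies were taken out. Medium and 3D form changed together between MB and the monolayers, and NM differed from OM in culture history and days in culture, so these cannot be told apart. Each population was measured on 1 Agilent 1-colour array, so no test across samples could be made, and every ratio describes 3 RNA samples only.

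Cadherins join neighbouring cells through calcium-dependent contacts, and their intracellular tails bind catenins that link the contact to actin. In a cadherin switch, a cell loses E-cadherin (CDH1) and gains N-cadherin (CDH2) or another cadherin. Melanocytes are held to keratinocytes by E-cadherin, and melanomas often lose it. Transcription factors of the SNAIL, TWIST and ZEB families repress CDH1 through E-box sequences, and fibronectin is a matrix protein of mesenchymal cells.

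Signals are given in arbitrary units (a.u.) as deposited, before scaling, and ratios after scaling to the average of 3 housekeeping genes, GAPDH, ACTB and HSP90AA1 (131555 on OM, 128596 on MB and 115402 a.u. on NM). A probe counted as well above background where over 50% of its spots carried the scanner's flag for it, which held for 28746 probes on OM, 29125 on MB and 26516 on NM. If the dimmer array missed this, only a bound is given ("at least N-fold"), taken against the lowest well-measured signal of that array or, if higher, the reading of the probe itself. That lowest signal was 20.9 on OM, 19.4 on MB and 29.1 a.u. on NM. The scanner's own error put an SD of about 0.20 on the log2 ratio of a bright single spot. Replicate spots of the same probe differed less, with an SD of 0.05 (log2) above 1000 a.u., but of 0.27 on OM, 0.34 on MB and 0.20 on NM between 20 and 50 a.u. Both errors are technical and leave out the variation between cultures. Signals of different probes were not set against each other, because probes differ in how strongly they bind. In RNA from a mixed population, fewer cells with a transcript and less transcript per cell cannot be told apart.

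The plot of scaled signals shows the brightest probe of each gene. On that scale CDH19, SNAI1 and FN1 were highest on MB, CDH3, CDH13, SNAI2 and TWIST1 on NM, and CDH2 on OM. CDH1 and CDH11 have no order, since all their values lie at background. No single direction between the 2D and 3D cultures was shared by the 8 measured genes.

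**Figure D1:**
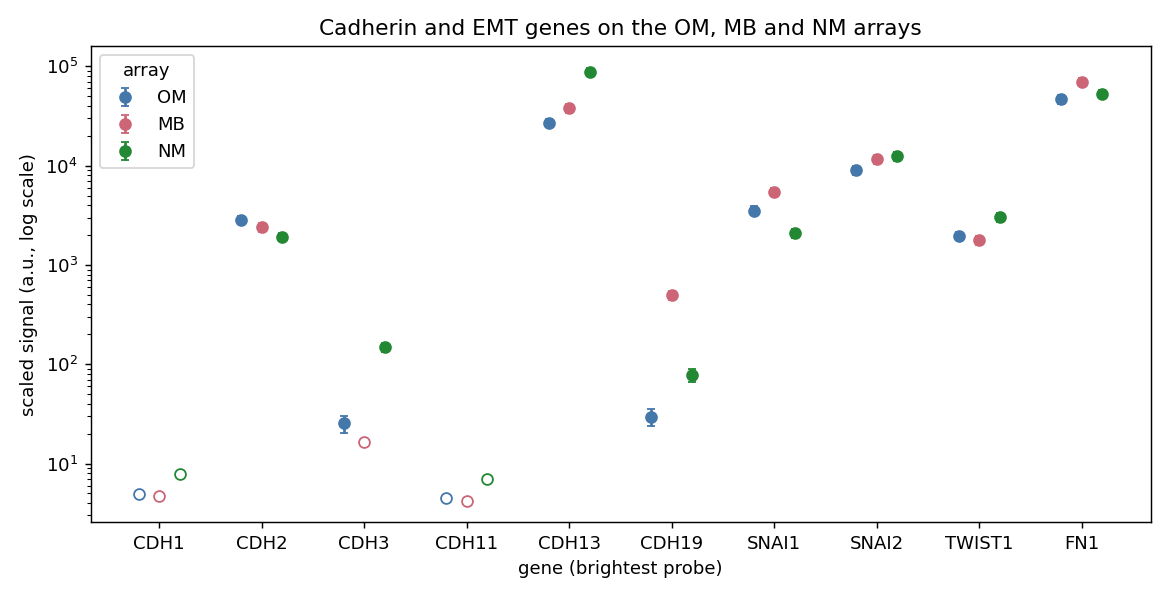
Scaled signal (a.u., log axis) of the brightest probe of each of the 10 genes on the OM, MB and NM arrays, with the scanner's stated error as bars. Open circles are not well above background; CDH19 stands highest on MB, CDH3 and CDH13 on NM, and CDH1 and CDH11 lie at background on all 3 arrays.

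E-cadherin, CDH1, was at background in all 3 populations. Its probe (hg17, chr16:67426715-67426774, plus strand) was printed in 10 spots and read 4.94 ± 0.357 on OM (SD over 10 spots), 4.58 ± 0.313 on MB (9 spots) and 6.86 ± 0.510 a.u. on NM (9 spots). None of its 10 spots was well above background on any array. The scanner's stated error per spot averaged 4.92 on OM, 4.56 on MB and 6.82 a.u. on NM, about as large as the readings. The SD over spots is therefore not the precision of these readings. The highest spots were 5.69 a.u. on OM and, among spots left out as outliers, 8.65 on MB and 14.1 on NM, all below the lowest well-measured signal of their array. These readings give no fold in either direction, and a difference in CDH1 between the populations was not detectable at this signal. CDH11, the cadherin of osteoblasts and mesenchymal cells (chr16:63538370-63538429, minus strand), read 4.45 on OM, 4.14 on MB and 6.19 a.u. on NM, and was likewise at background on every array.

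N-cadherin, CDH2, was well above background throughout and differed little. Its probe (chr18:23786079-23786138, minus strand) read 2855 on OM, 2337 on MB and 1683 a.u. on NM. MB was 1.19-fold lower than OM (log2 ratio -0.26, scanner SD 0.20), and NM was 1.49-fold lower than OM (log2 ratio -0.57, scanner SD 0.20). The MB signal was 1.25-fold higher than that of NM (log2 ratio 0.32). All 3 ratios stayed under 2-fold, so a well-measured CDH2 and a CDH1 at background were found in the bodies and in both monolayers.

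CDH19, a type II cadherin known from the neural crest and Schwann cell precursors, gave the largest ratio among the members. The brightest CDH19 probe (chr18:62322806-62322865, minus strand) read 29.7 on OM, 481 on MB and 68.3 a.u. on NM, well above background on all 3. The MB signal was 16.6-fold that of OM (log2 ratio 4.05, scanner SD 0.31), higher than for 99.9% of the genes measured in this comparison. MB was also 6.33-fold higher than NM (log2 ratio 2.66, scanner SD 0.25), which placed CDH19 above 98.9% of genes. NM was 2.62-fold higher than OM (log2 ratio 1.39, scanner SD 0.34), so the order was MB, NM, OM. The lower end of each ratio rests on a signal below 100 a.u., where the background correction matters. With normexp in place of the scanner's background subtraction the log2 ratios were 2.45 for MB over OM, 1.79 for MB over NM and 0.66 for NM over OM. The log2 ratios stayed above 0, but MB over NM passed 2-fold only and NM over OM passed neither fold.

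The other CDH19 probe lies further upstream on the minus strand (chr18:62353255-62353314). It read 5.12 on OM, 23.2 on MB and 6.82 a.u. on NM, and only MB was well above background. Its ratio of MB over OM is at least 1.13-fold, and no fold could be had against NM because the MB signal did not pass the NM floor. The scanner's error on that MB reading was 5.14 a.u., so the bound against OM lies within technical error. Both probes had their highest reading on MB, but the large fold rests on 1 probe and 1 spot per array. None of the 24 spots within 2 positions of the brighter probe was bright on MB alone. Only 3.70% of all spots on that array had such a neighbour, so most spots would pass this check. The 2 CDH19 probes are shown by their first 30 of 60 bases, since both read highest on MB, at very different signals.

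CDH19, brighter probe: atgctgtcattgaacagagatgtggggaga
CDH19, dimmer probe: actaggagcaaagtgttcaatatcaatgat

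P-cadherin, CDH3, followed another order, with the highest reading in the regrown monolayer. Its probe (chr16:67290313-67290372, plus strand) read 25.4 on OM, 16.2 on MB and 130 a.u. on NM, and the MB value was not well above background. NM was 5.84-fold higher than OM (log2 ratio 2.55, scanner SD 0.33), above 99.5% of genes. MB was at least 7.47-fold lower than NM and at least 1.28-fold lower than OM. The bound against OM (log2 ratio -0.36) lies within technical error, as replicate spots of such dim signals put an SD of 0.43 on it. CDH3 entered both comparisons with MB only through the brighter array. With normexp the log2 ratio of NM over OM was 1.26 and the bound for MB over NM was -1.58, both still past 2-fold and no longer past 5-fold. One of the 24 spots within 2 positions of the CDH3 probe was bright on NM alone, and 2.62% of all spots on that array had such a neighbour. The CDH3 and CDH1 probes lie 136342 bases apart on chromosome 16, and CDH1 did not rise above background on NM, where CDH3 was highest.

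CDH13, an atypical cadherin that is anchored in the membrane by a lipid and lacks the catenin-binding tail, was bright on all arrays. Its probe (chr16:82387528-82387587, plus strand) read 27068 on OM, 36821 on MB and 77581 a.u. on NM. NM was 3.27-fold higher than OM (log2 ratio 1.71, scanner SD 0.20), above 98.6% of genes. MB was 1.39-fold higher than OM (log2 ratio 0.48) and 2.35-fold lower than NM (log2 ratio -1.23). With quantile normalization the latter log2 ratio was -0.88, under 2-fold. The signal thus stood in the order OM, MB, NM, with the larger step between MB and NM. CDH3 and CDH13, the members with the highest ratios of NM over OM, are shown by the first 30 bases of their probes.

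CDH3: tgcgttttaatactgagtgtgcctaagttg
CDH13: gtgctttcagttagccttctgtaggaagta

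The 6 cadherins lie on 2 chromosomes, with CDH1, CDH3, CDH11 and CDH13 on chromosome 16 and CDH2 and CDH19 on chromosome 18. On chromosome 16, CDH1 and CDH11 were at background while CDH3 and CDH13 were highest on NM, and on chromosome 18, CDH2 was highest on OM and CDH19 on MB.

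Among the transcription factors, SNAI1 varied most between MB and NM. SNAI1 encodes the zinc finger repressor SNAIL, and its probe (chr20:48038577-48038636, plus strand) read 3533 on OM, 5326 on MB and 1829 a.u. on NM. MB was 1.54-fold higher than OM (log2 ratio 0.63) and 2.61-fold higher than NM (log2 ratio 1.39). NM was 1.69-fold lower than OM (log2 ratio -0.76), which placed SNAI1 above only 9.29% of genes. The order MB, OM, NM was kept under every alternative processing that was run.

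SNAI2, which encodes SLUG, a zinc finger factor of the neural crest and melanocytes, stayed within 2-fold in all 3 comparisons. The brighter probe (chr8:49993263-49993322, minus strand) read 9045 on OM, 11408 on MB and 10892 a.u. on NM. MB was 1.29-fold higher than OM (log2 ratio 0.37) and 1.06-fold lower than NM (log2 ratio -0.09), the latter within the scanner SD, and NM was 1.37-fold higher than OM (log2 ratio 0.46, scanner SD 0.20). The dimmer SNAI2 probe, for which the files give no position, read 106 on OM, 117 on MB and 107 a.u. on NM. Its log2 ratios were 0.17 for MB over OM, -0.02 for MB over NM and 0.19 for NM over OM, so both probes stayed under 2-fold.

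TWIST1, a basic helix-loop-helix factor, read lowest in the bodies at both of its probes. The brighter probe (chr7:18928740-18928799, minus strand) read 1974 on OM, 1730 on MB and 2644 a.u. on NM. The MB signal was 1.12-fold lower than OM, a difference within the scanner SD, and 1.70-fold lower than NM (log2 ratio -0.77). NM was 1.53-fold higher than OM (log2 ratio 0.61). The dimmer probe (chr7:18928885-18928944) read 45.2 on OM, 24.8 on MB and 54.6 a.u. on NM. It put MB 1.78-fold below OM (log2 ratio -0.83, scanner SD 0.36) and 2.45-fold below NM (log2 ratio -1.29). The order NM, OM, MB was the same at both probes, whereas the size was larger at the dimmer probe, whose MB signal lay close to the floor of 19.4 a.u.

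FN1 was modestly higher in the bodies. Its brightest probe was printed in 10 spots, which read 46849 ± 1418 on OM (SD over 10 spots), 68194 ± 1740 on MB and 46540 ± 1456 a.u. on NM. The spots of MB ranged from 66109 to 71699 a.u. and did not overlap those of OM (44912 to 49315) or NM (44117 to 49046). Replicate spots above 1000 a.u. differ by an SD of only 0.05 (log2), so small ratios also separate them. How many other probes with 10 spots separate in this way was not counted. MB was 1.49-fold higher than OM (log2 ratio 0.57, SD 0.02 over spots and 0.20 from the scanner), above 81.8% of genes. It was 1.31-fold higher than NM (log2 ratio 0.40), above 68.4% of genes. The unscaled signals of OM and NM overlapped, and after scaling NM was 1.13-fold higher (log2 ratio 0.18), within the scanner SD.

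The FN1 probes all lie on the minus strand of chromosome 2 and cover more of the genome than their 60 bases, so each crosses at least 1 intron. The brightest probe covers chr2:216051838-216052239, a span of 402 bases. The probe at chr2:216060632-216062167 (a span of 1536 bases) read 13402 on OM, 19550 on MB and 13546 a.u. on NM, and was 1.49-fold higher on MB than on OM. The probe at chr2:216113723-216114401 (a span of 679 bases), which the array assigns to transcript variant 7, read 1011 on OM, 1110 on MB and 899 a.u. on NM, and was 1.12-fold higher on MB than on OM (log2 ratio 0.17). The first pair of probes gave log2 ratios of 0.57 and 0.58 for MB over OM, and the variant 7 probe 0.17. The name of the latter is the array's assignment only. Whether it reads variant 7 alone was not tested, so its ratio is not a reading of that variant. Their sequences are shown whole because they read different parts of the FN1 transcript.

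FN1, brightest probe: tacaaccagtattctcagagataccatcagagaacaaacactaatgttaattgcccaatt
FN1, middle probe: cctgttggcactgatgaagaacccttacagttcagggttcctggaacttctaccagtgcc
FN1, variant 7 probe: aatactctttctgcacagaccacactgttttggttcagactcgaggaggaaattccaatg

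**Figure D2:**
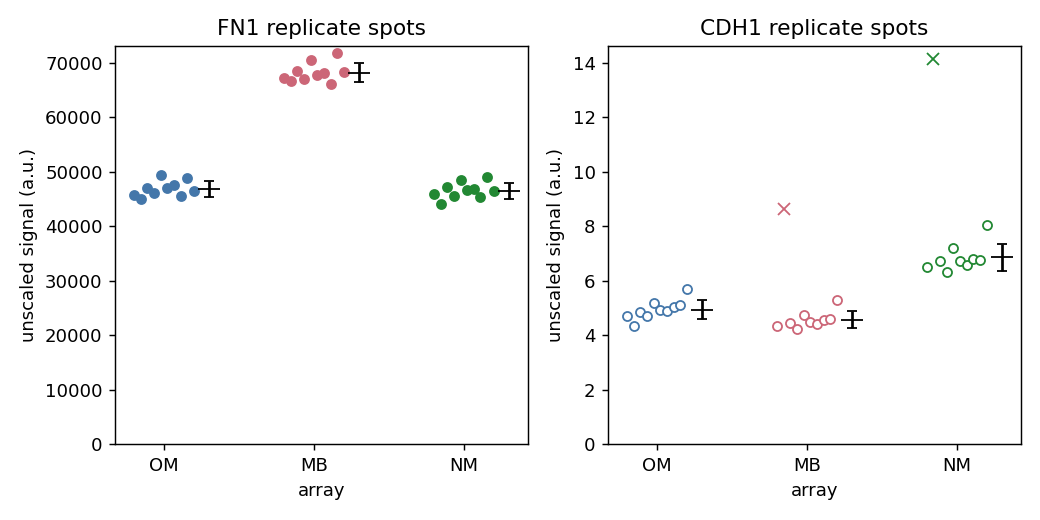
Unscaled signal (a.u.) of the replicate spots of the brightest FN1 probe and the CDH1 probe on each array, with the mean and SD over the spots used as a bar. Filled circles are well above background, open circles are not and crosses are outlier spots left out; the FN1 spots of MB lie above all those of OM and NM, and the CDH1 spots lie at background.

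The members past each fold threshold were counted beside the share of all measured genes. For MB over OM, 1 of the 8 members with a ratio, CDH19, was at least 2-fold higher, where 6.66% of 22222 genes were. None was at least 2-fold lower, against 4.66% of genes. At the 5-fold threshold that the study used, CDH19 alone passed, against 0.828% of genes that were higher and 0.554% that were lower. The members' median log2 ratio was 0.42, beside 0.08 over all genes, with 5 members above 0 and 3 below.

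For MB over NM, CDH19 and SNAI1 were at least 2-fold higher, 2 of 8 members against 12.4% of 21939 genes. CDH3 and CDH13 were at least 2-fold lower, again 2 of 8, against 9.87% of genes. At 5-fold CDH19 was higher (1.83% of genes) and CDH3 lower (1.43% of genes). Members lay on both sides of 0 in equal number, 4 and 4, and their median log2 ratio of 0.11 stood beside 0.04 over all genes.

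For NM over OM, CDH3, CDH13 and CDH19 were at least 2-fold higher, 3 of 8 members against 4.59% of 21596 genes, and none was 2-fold lower, against 5.89% of genes. CDH3 alone passed 5-fold, against 0.653% of genes higher and 0.454% lower. The median log2 ratio was 0.53 for the members and 0.06 for all genes, with 6 members above 0 and 2, CDH2 and SNAI1, below. The 3 comparisons share arrays, so a low or high reading on 1 array enters 2 of them. With 8 measured members each count is small, and the 10 genes were not drawn at random.

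**Figure D3:**
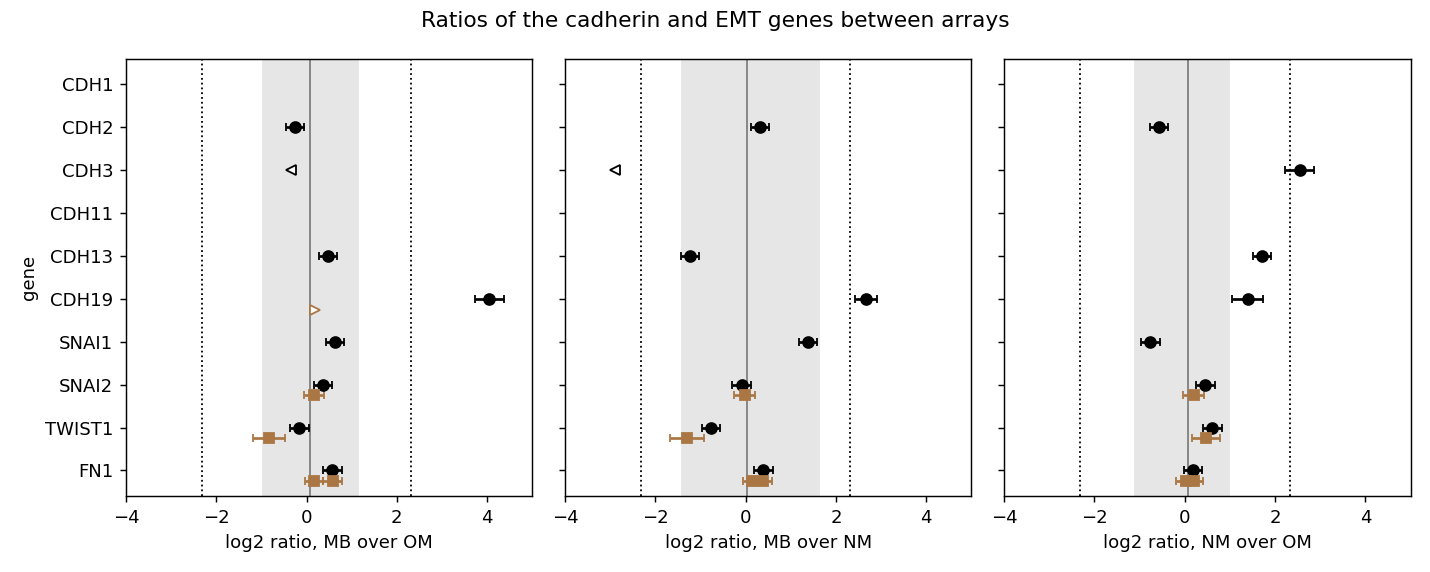
Log2 ratios of the members for MB over OM, MB over NM and NM over OM, with black circles for the brightest probe, brown squares for further probes, bars for the scanner SD and open triangles for bounds. The grey band holds the middle 90% of all genes, the grey line their median and the dotted lines 5-fold; CDH19 lies beyond 5-fold on MB against both monolayers and CDH3 on NM against OM.

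Other junction and transition genes were read from 6 lists. As a backdrop, 6.66% of all measured genes were at least 2-fold higher and 4.66% lower on MB than on OM. Against NM, MB was higher by that fold for 12.4% of genes and lower for 9.87%. NM stood at least 2-fold above OM for 4.59% and below it for 5.89%. The all-gene medians (log2) were 0.08 (MB to OM), 0.04 (MB to NM) and 0.06 (NM to OM). Whether any list departs from these values was not tested. Of 17 other cadherins, 5 were well above background on all arrays and 9 on none. Their median log2 ratio for MB over OM was -0.47 (2 of 8 measured genes at least 2-fold higher, 0 lower), -0.43 for MB over NM (6 genes with a ratio, 1 higher and 1 lower) and 0.06 for NM over OM (0 of 6 higher, 1 lower). CDH6, a type II cadherin of kidney and neural crest, read 157 on OM, 402 on MB and 37.8 a.u. on NM. It shared with CDH19 a highest reading on MB, with log2 ratios of 1.39 over OM and 3.26 over NM, but was lower on NM than on OM (log2 ratio -1.87).

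Desmosomal genes stayed within 2-fold in every comparison. Of 12 such genes 4 were well above background on all arrays and 7 on none, and the median log2 ratios were 0.22 for MB over OM (5 genes), 0.18 for MB over NM and 0.07 for NM over OM (4 genes each). DSG2, a desmosomal cadherin, read 1201 on OM, 2090 on MB and 1298 a.u. on NM. DSP, which encodes the plaque protein desmoplakin, read 5343 on OM, 3034 on MB and 4203 a.u. on NM. These were the largest ratios upward (log2 0.83) and downward (log2 -0.78) of the list for MB over OM.

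Catenins and their junction partners were mostly measured, with 13 of 16 well above background on all arrays. One of the 14 measured genes was at least 2-fold higher on MB than on OM and than on NM, and 0 were lower, and 0 passed 2-fold for NM over OM. The medians were -0.02 (MB over OM), 0.04 (MB over NM) and -0.05 (NM over OM). That gene was CTNNBIP1, which encodes an inhibitor of the binding of beta-catenin to TCF factors, at 19149 on OM, 42023 on MB and 11381 a.u. on NM (log2 ratios of MB 1.17 over OM and 1.73 over NM). NECTIN2, an immunoglobulin-type adhesion molecule of adherens junctions, read 2730 on OM, 1665 on MB and 2502 a.u. on NM.

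Of 16 other transcription factors of the transition, 13 were well above background on all arrays. For MB over OM the median log2 ratio of 14 measured genes was 0.29, with 1 at least 2-fold higher and 0 lower. For MB over NM it was 0.08 over 13 genes, with 3 higher and 1 lower, and for NM over OM it was 0.09, also over 13, with 1 higher and 1 lower. PRRX1, a homeobox gene of mesenchymal cells, read 283 on OM, 543 on MB and 93.2 a.u. on NM, so that MB stood above NM by a log2 ratio of 2.39. It had the order of SNAI1: highest on MB and lowest on NM. Named after their values were seen, ZEB1 read 132 on OM, 193 on MB and 127 a.u. on NM, ZEB2 read 2644, 3608 and 3055, and TWIST2 read 7215, 10572 and 9683, all within 2-fold.

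The epithelial list of 25 genes had 14 well above background on all arrays and 7 on none, with median log2 ratios of 0.07 for MB over OM (2 of 18 at least 2-fold higher, 0 lower), 0.01 for MB over NM (15 genes with a ratio, 2 higher, 0 lower) and 0.29 for NM over OM (15 with a ratio, 2 higher, 1 lower). MAL2, a membrane protein of vesicle transport in polarised epithelial cells, read 21.7 a.u. on OM, not well above background, 228 on MB and 162 on NM. Its log2 ratio over OM was at least 3.42 on MB and at least 3.09 on NM. Named after its value was seen, EPCAM, an epithelial adhesion molecule, was at background on all 3 arrays, as was CDH1. Other genes of the list were not. KRT8 (1526 on OM, 1477 on MB and 1268 a.u. on NM) and KRT18 (14574, 11467 and 5051), also named after their values were seen, were well above background on all 3.

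Of 23 mesenchymal genes 19 were well above background on all arrays and 4 on none. The median log2 ratio was 0.59 for MB over OM (5 of 19 at least 2-fold higher, 2 lower), -0.21 for MB over NM (3 higher, 3 lower) and 0.33 for NM over OM (3 higher, 0 lower). S100A4, a calcium-binding protein linked to cell motility, read 1215 on OM, 39077 on MB and 1033 a.u. on NM, with log2 ratios of MB of 5.04 over OM and 5.09 over NM. VIM, named after its value was seen, read 454704 on OM, 432154 on MB and 459227 a.u. on NM, and MB stood at log2 ratios of -0.04 to OM and -0.24 to NM. Members of the list thus did not share a direction between MB and the monolayers.

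**Figure D4:**
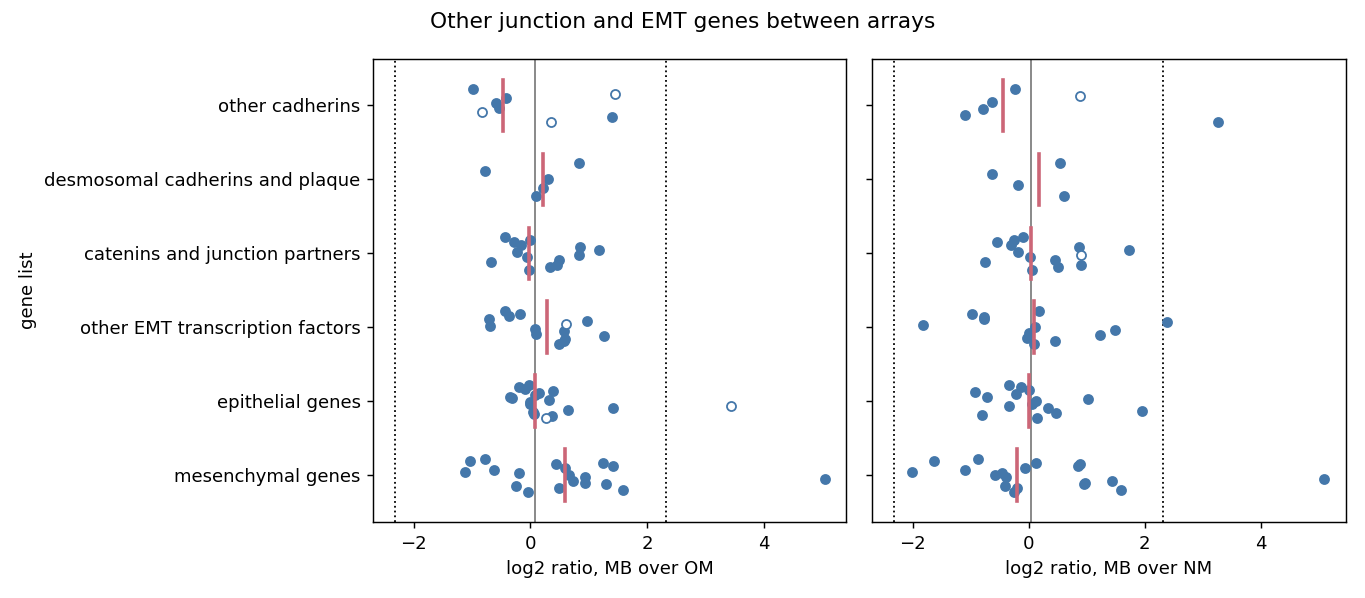
Log2 ratios of MB over OM and MB over NM for the measured genes of the 6 lists, each circle a gene and open circles bounds. Red bars are list medians, the grey line the median of all genes and the dotted lines 5-fold; single genes, S100A4 and MAL2 over OM and S100A4, CDH6 and PRRX1 over NM, lie beyond 5-fold while the list medians lie between -0.47 and 0.59.

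Markers of the labelled cell type were present in part. Of 10 melanocyte lineage genes 7 were well above background on all arrays, among them SOX10 (6254 on OM, 9382 on MB and 4887 a.u. on NM) and MITF (423, 718 and 551). Of the pigment enzymes, DCT was well above background on all arrays (66.7, 62.8 and 64.1 a.u.), and TYR and TYRP1 were on none. Summed over the list the signal was 35425 on OM, 58686 on MB and 22381 a.u. on NM, most of it from S100B (25155, 43760 and 13307 a.u.). For cell types that express cadherins of their own, the leukocyte marker PTPRC and the endothelial cadherin CDH5 were not well above background on any array, nor were 3 of 6 keratinocyte and 4 of 6 fibroblast markers. The endothelial marker PECAM1 was well above background on MB only (87.7 a.u.) and the keratinocyte marker TP63 on OM only (88.3 a.u.). The summed signals were 39430, 39773 and 32793 a.u. for keratinocyte markers, nearly all from KRT10, 5563, 9939 and 3235 for fibroblast markers, nearly all from PDGFRA, 229, 501 and 137 for endothelial markers, and 208, 217 and 192 for leukocyte markers on OM, MB and NM. Each sum follows its brightest probe and is not a level of the cell type. The melanocyte, fibroblast and endothelial sums, led by S100B, PDGFRA and VWF, were highest on MB and lowest on NM, an order that MITF did not share, and their part in the ratios was not tested.

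Over 14 alternative ways of processing, wherever they gave a value, 22 of the 24 member ratios kept their sign, including all 8 that were past 2-fold. A bound that would point the other way gave no value, so bounds could drop out but not change sign. This holds for CDH3 in both comparisons with MB and for the dimmer CDH19 probe. The exceptions were SNAI2 for MB over NM, which ranged from -0.26 to 0.07 on the log2 scale, and FN1 for NM over OM, from -0.04 to 0.25. The CDH19 ratio of MB over OM had the widest range, from the bound of 0.18 at its dimmer probe to 4.05. CDH13 ranged from 1.47 to 1.78 for NM over OM, from -1.40 to -0.88 for MB over NM and from 0.17 to 0.58 for MB over OM.

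**Figure D5:**
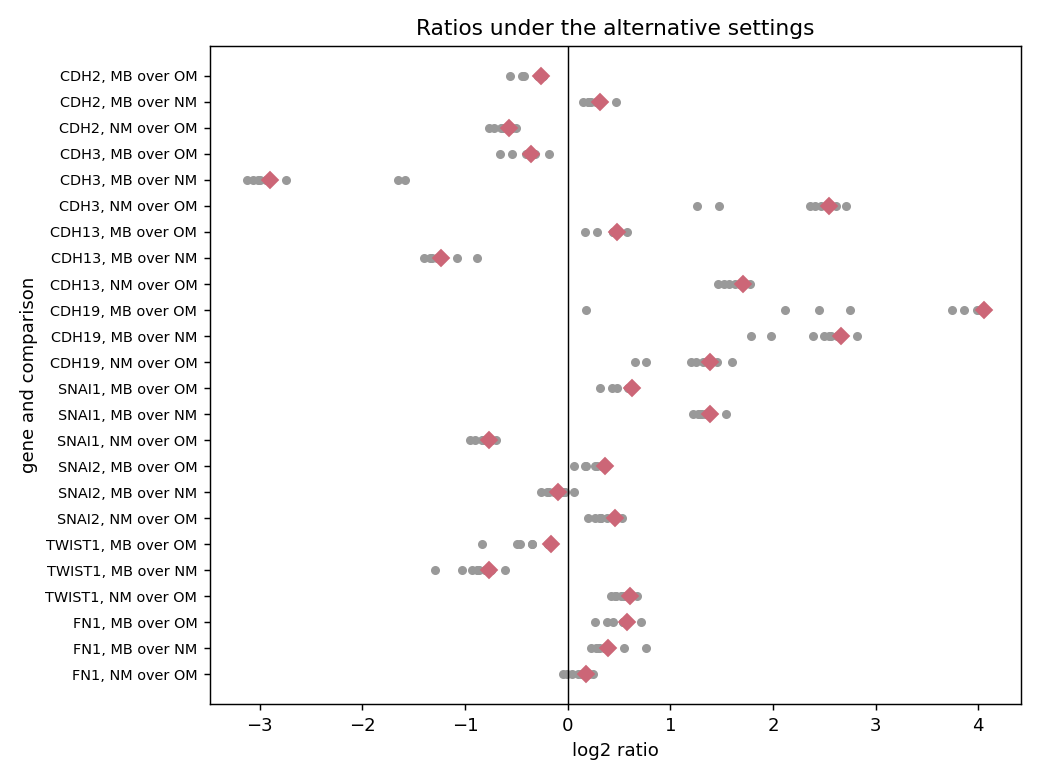
Log2 ratio of each measured member in each comparison under the main processing (red diamonds) and under the alternatives (grey circles). The ratios of CDH19 and CDH3, which rest on dim signals, spread over the widest ranges, down to 0.18 for CDH19 in MB over OM, while CDH13 in NM over OM lies between 1.47 and 1.78.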

How the data were processed

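The authors deposited spot intensities for each array as read by Agilent Feature Extraction (9.5.3.1 in the file header), with local background subtracted, dim values replaced by a surrogate and no scaling between arrays. The deposited series value table held the same intensities (130128 of 130128 within 0.1%). All 3 arrays lay on 1 slide. From these values, control and outlier spots (77 on OM, 79 on MB, 81 on NM) were left out, spots of a probe averaged and each array scaled to the average of GAPDH, ACTB and HSP90AA1. The study normalized to GAPDH, ACTB and HSP90, and HSP90AA1 was chosen here for its probe with 10 spots. A gene was represented by its probe with the highest mean signal, and counted as measured in a comparison if well above background on at least 1 of its arrays, while medians cover only genes with a ratio or bound. The number of arrays limits the precision, and no test was run. The thresholds were 5-fold, the study's, and 2-fold.

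Named genes were all members and, from 6 lists (other cadherins, desmosomal genes, catenins and partners, other transcription factors, epithelial and mesenchymal genes), those past 5-fold and above 100 a.u. on the brighter array, otherwise the largest change each way. The members and lists were chosen with earlier results of these data known. The fibroblast markers COL1A1, COL1A2 and COL3A1 and the endothelial marker CDH5 are also in a gene list. Positions are those of the files (hg17), and an annotation of that build was not used here. Gene names on the array were updated through accession (23434 probes), symbol (2317) or synonym (1043), and 14206 kept the array's name. Alternatives were other scalings (7 spike-in probes among them), background corrections, filters and probe rules. Python 3.11.15, numpy 2.4.6, pandas 2.3.3, matplotlib 3.10.9, R 4.3.3 and limma 3.58.1 (normexp with offset 50, and quantile normalization) were used. The calling was tested on simulated data with changes placed only in probes above 100 a.u. It was thus not tested for dim readings such as those of CDH3 and CDH19.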

Additional observations from a re-analysis of the deposited data

How the results depend on the processing

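No paired analysis was possible because each population has 1 array. Of the 12 counts of members past a fold, the 4 counts of 0 (lower for MB over OM and for NM over OM) kept their value under all 14 alternatives. The members higher for NM over OM at 2-fold went from 3 to 2 with normexp, without background subtraction, with the second brightest probe and with the brighter array above 100 a.u. With the second brightest probe for the 4 members that have several, the members higher for MB over OM went from 1 to 0 at 2-fold and at 5-fold, and those higher for MB over NM from 2 to 1 at 2-fold and from 1 to 0 at 5-fold. Averaging over probes also left 0 higher for MB over OM at 5-fold. With normexp and without background subtraction, the members past 5-fold went from 1 to 0 for MB over NM, both higher and lower, and for NM over OM. The members lower for MB over NM at 2-fold went from 2 to 1 with quantile normalization, where CDH13 stood at -0.88 (log2), and to 1 where both arrays had to be well above background, since CDH3 then has no ratio, which also left 0 at 5-fold. The same 2-fold count was 3, TWIST1 included, with the mean over probes (TWIST1 at -1.03) and with the second brightest probe (-1.29). The other causes were not tested. The scaling set the median of all genes for MB over OM between -0.23 (spike-in probes) and 0.08 (main). Signal over background limits CDH1, CDH3, CDH11 and CDH19.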
